A study of Homo sapiens with 6 samples.

Results

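The 51 genes described here code for the proteins that license replication origins, unwind and copy DNA, and make deoxynucleotides. They were chosen by name from a list of origin, fork and nucleotide synthesis genes, with E2F1 added as a transcription activator of such genes. The choice was made with earlier results of these data known. All 51 were found among the 14959 genes measured. UM-SCC1, a human cell line from a squamous cell carcinoma of the head and neck (HNSCC), was harvested for RNA sequencing 48 h after transfection of miR-204-5p mimics (3 libraries) or control mimics (3 libraries). Mimics are short synthetic RNAs that act like the mature miRNA, and the submitters' design text describes the libraries of a group as separate experiments. Both groups are of this line alone and all cultures were transfected, and no genotype, other agent or other time point divides them. The level of miR-204-5p itself was not analysed here. Depth, inferred from the smallest steps in the values, was 13.1 to 16.4 M (1e6) fragments per library, so that no group was the shallower throughout. Squamous markers were present in both groups, with KRT5, a basal keratin, at 118 to 136 FPKM with miR-204-5p mimics and 160 to 184 FPKM with control mimics. FPKM is the number of fragments per kilobase of transcript and per 1e6 mapped fragments. The sum over 10 squamous markers was 632 to 748 FPKM with miR-204-5p mimics and 864 to 889 FPKM with control mimics. Of these 10, 7 were lower and 2, KRT6A and CDH1, higher. The lineage regulator TP63 was at 23.9 to 30.1 FPKM against 54.7 to 57.6 FPKM (log2 change -1.01, limma adjusted p = 0.000276). Markers of other cell types differed in level. PTPRC, which marks leukocytes, was at no more than 0.546 FPKM and PECAM1, which marks endothelium, at no more than 0.173 FPKM. The immune markers CD68 and LYZ were at 8.68 to 11.7 and 3.59 to 4.59 FPKM, and the fibroblast marker COL1A1 at 8.04 to 10.5 FPKM. With miR-204-5p mimics 2 of 4 fibroblast and 1 of 3 endothelial markers were higher (limma adjusted p under 0.05). Of the 4 immune markers 0 were called, and no marker of these lists was lower. The sum of 4 fibroblast markers was 9.81 to 11.6 FPKM against 8.58 to 9.41 FPKM with control mimics, nearly all of it COL1A1. The sum of 4 immune markers was 13.7 to 15.4 against 14.6 to 15.7 FPKM, most of it CD68, and that of 3 endothelial markers was 0.59 to 0.767 against 0.443 to 0.502 FPKM. The fibroblast marker LUM was listed at 0 in 1 library with miR-204-5p mimics and in 2 with control mimics. The part of these marker differences in the results below was not tested.

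DNA replication starts when the origin recognition complex and CDC6, with CDT1, load the MCM2-7 ring onto DNA in the G1 phase of the cell cycle. The kinase CDC7-DBF4 then helps to turn the ring, with CDC45 and GINS, into the active helicase, and polymerases with their clamp copy the strands while RPA covers unpaired DNA. Many of these genes are transcribed around the entry into S phase by E2F factors, which RB family proteins hold back in G1, and cancer cells often express them at high levels.

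The sequences that bear on these genes are shown here. A miRNA finds its targets mainly through its seed, bases 2 to 8 counted from the 5' end, which pairs with sites in the 3'UTR. The mature miR-204-5p (RefSeq, GRCh38.p14, chr9:70810031-70810052, minus strand) has 22 bases, and its seed is in capitals.

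hsa-miR-204-5p: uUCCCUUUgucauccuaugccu

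A site of type 8mer reads AAAGGGAA in the RNA's sense strand, a 7mer-m8 reads AAAGGGA and a 7mer-A1 reads AAGGGAA, and each gene was searched in its longest 3'UTR (GENCODE 29, GRCh38). The 8mer was found in 7 replication genes, and 5 of its sites are printed here with the bases around them and the site in capitals. They are shown because the 8mer is the longest of the 3 kinds of match. Exons are numbered in the transcript with the longest 3'UTR, and the POLA1 run stops where that transcript ends. For CDC7 the site lies in exon 12 (chr1:91525205-91525212, plus strand) and for RRM2 in exon 10 (chr2:10131335-10131342, plus strand). For GINS3 it lies in exon 3 (chr16:58405291-58405298, plus strand), for POLA1 in exon 37 (chrX:24996978-24996985, plus strand) and for RPA1 in exon 8 (chr17:1899894-1899901, plus strand), the last outside the RPA1 transcript that the deposited table lists.

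CDC7: tggttgatAAAGGGAAgctgcagg
RRM2: atcagttgAAAGGGAAacaagtat
RPA1: cttgtctcAAAGGGAAgattcccc
GINS3: aaggaggaAAAGGGAAaggcagac
POLA1: agttttctAAAGGGAAa

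Promoters were searched for the E2F motifs TTTCCCGC and TTTGGCGC on both strands, in RefSeq windows of 300 bases (GRCh38.p14) that hold 250 bases before the start site and 50 from it on. The motifs do not overlap in the windows shown. The promoters of CDC7 (chr1:91500862-91501161, plus strand), MCM6 (chr2:135876394-135876693, minus strand) and DUT (chr15:48331947-48332246, plus strand) are printed because each holds 2 matches. Each is the single window of its gene with a match, out of 2 windows for CDC7, 1 for MCM6 and 4 for DUT. The start site of the DUT window lies 1186 bases downstream of the start of the transcript that the deposited table lists, that of CDC7 219 bases downstream, and those of MCM6 and E2F1 within 19 bases of it. The E2F1 promoter (chr20:33686336-33686635, minus strand) is printed because E2F1 is itself a member. Matches are in capitals, and a match on the other strand reads GCGGGAAA. They lay at -68 and -34 from the start site in CDC7, at -152 and -90 in MCM6, at -42 and -27 in DUT and at -20 in E2F1.

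CDC7 promoter: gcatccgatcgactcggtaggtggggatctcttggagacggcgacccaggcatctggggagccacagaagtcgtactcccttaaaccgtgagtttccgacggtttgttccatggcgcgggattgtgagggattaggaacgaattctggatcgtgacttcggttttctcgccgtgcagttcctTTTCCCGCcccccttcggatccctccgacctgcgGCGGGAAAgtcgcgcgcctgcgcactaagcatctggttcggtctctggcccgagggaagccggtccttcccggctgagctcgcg
MCM6 promoter: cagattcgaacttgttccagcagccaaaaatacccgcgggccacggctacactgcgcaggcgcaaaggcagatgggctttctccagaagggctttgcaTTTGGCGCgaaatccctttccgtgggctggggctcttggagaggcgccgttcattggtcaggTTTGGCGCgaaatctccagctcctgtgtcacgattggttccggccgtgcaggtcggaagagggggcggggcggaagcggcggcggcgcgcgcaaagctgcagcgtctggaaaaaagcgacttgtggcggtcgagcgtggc
DUT promoter: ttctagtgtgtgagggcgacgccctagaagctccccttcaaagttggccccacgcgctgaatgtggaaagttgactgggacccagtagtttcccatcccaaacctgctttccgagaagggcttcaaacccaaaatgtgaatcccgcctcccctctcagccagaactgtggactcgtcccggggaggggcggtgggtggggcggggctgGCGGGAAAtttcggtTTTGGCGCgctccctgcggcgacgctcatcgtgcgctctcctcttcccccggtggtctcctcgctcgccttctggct
E2F1 promoter: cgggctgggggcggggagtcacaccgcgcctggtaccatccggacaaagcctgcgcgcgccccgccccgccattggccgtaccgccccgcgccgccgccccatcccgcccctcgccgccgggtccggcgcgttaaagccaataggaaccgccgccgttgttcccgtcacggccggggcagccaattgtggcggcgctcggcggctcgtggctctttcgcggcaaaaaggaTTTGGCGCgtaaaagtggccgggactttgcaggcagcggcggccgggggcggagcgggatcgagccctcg

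The replication genes were, as a group, higher with miR-204-5p mimics than with control mimics. Of the 51 genes 36 were higher and 0 were lower in limma, a linear model with a two-sided test, at a p under 0.05 after Benjamini-Hochberg adjustment over all genes. By that rule 23.9% of all 14959 genes were called higher and 16.8% lower. At an unadjusted limma p under 0.05 the counts were 38 and 0, beside 4290 higher and 3105 lower of all genes. The 3 libraries with miR-204-5p mimics all lay above the 3 with control mimics for 39 of the 51 genes, beside 30.9% of all genes. They all lay below for 1, E2F1, beside 3393 of the 14959 genes. The median log2 fold change of FPKM + 1 over the 51 genes was 0.35, with a range of -0.16 to 1.05, against a median of 0.03 over all genes. Adding 1 FPKM shrinks the change of genes with a low FPKM. For GINS4, near 1 FPKM, the log2 change was 0.18 on this scale and 0.33 as the log2 ratio of the group means, and for MCM10 it was 0.38 and 0.55. Of the 51 genes 15 passed 0.5 on the log2(FPKM + 1) scale and 19 by the log2 ratio of the means, whose median was 0.40. RNA came from whole cultures, so more cells that express a gene and more RNA per cell cannot be told apart. All 51 genes reached a mean of 1 FPKM, and of the 11504 genes of the table that did so 3183 were higher and 2313 lower. The p-values rest on the spread between the 3 libraries of a group, which limma moderates with a trend fitted over all genes. An exact permutation test of 3 against 3 libraries cannot give a two-sided p below 0.1 for a single gene.

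**Figure D1:**
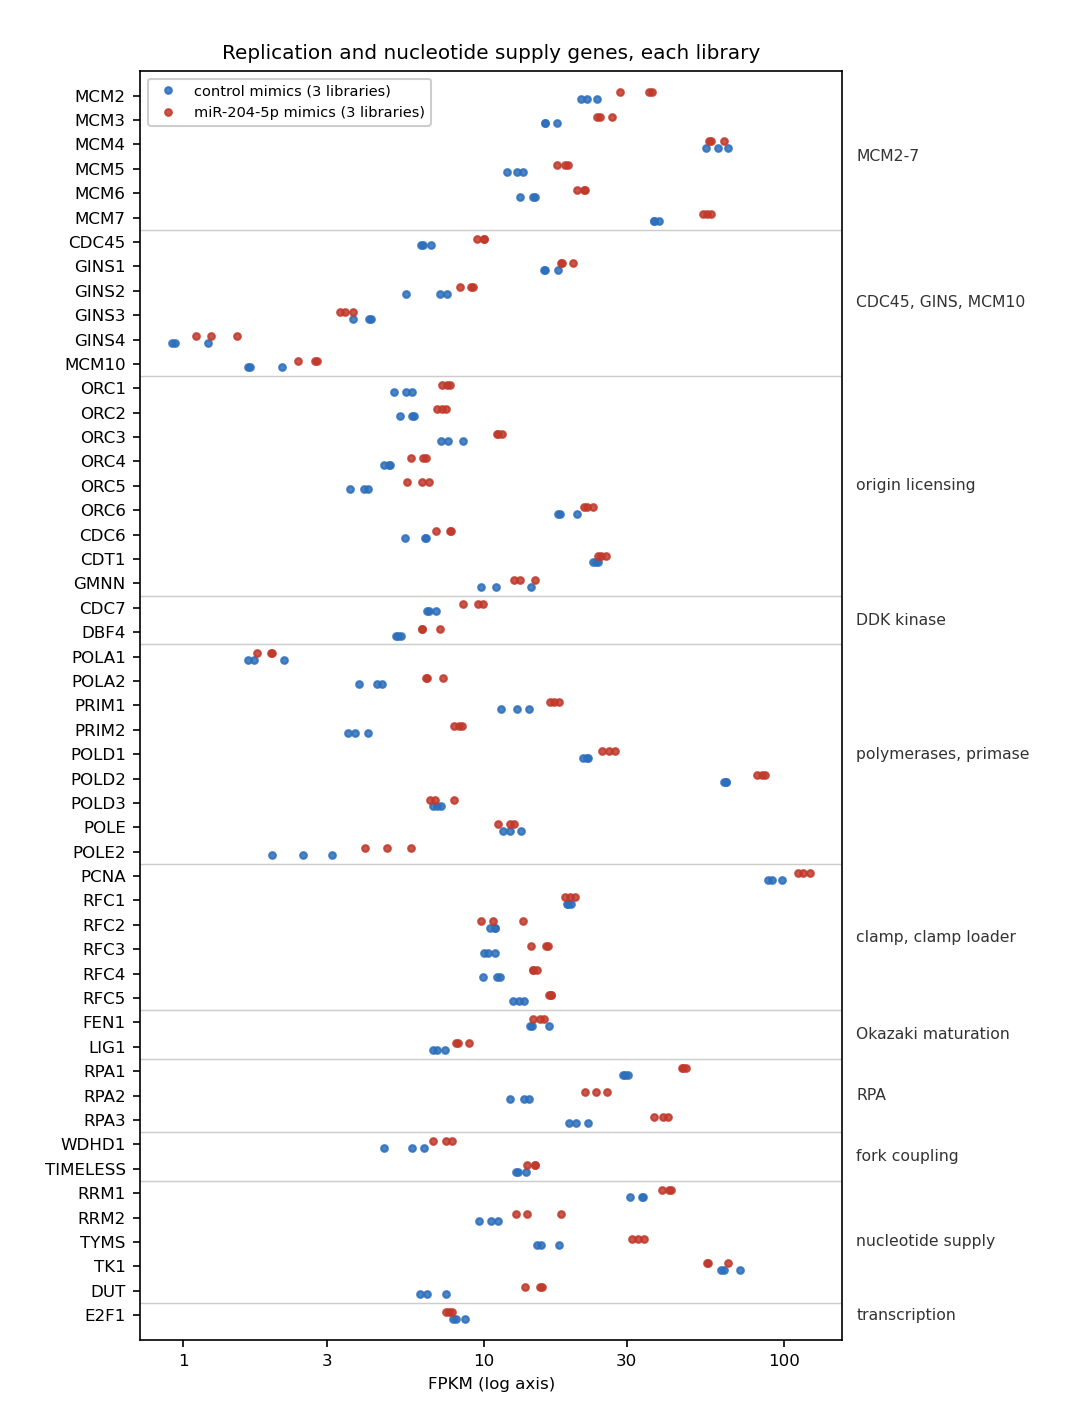
FPKM (horizontal log axis) of each of the 51 genes in the 3 libraries with control mimics (blue) and the 3 with miR-204-5p mimics (red), in order of role. The red points lie to the right of all blue points for 39 genes, and the group means run from 1.02 FPKM for GINS4 to 117 FPKM for PCNA.

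The MCM2-7 helicase subunits form a ring in which each of the 6 proteins is needed, and 5 of their 6 genes rose. MCM2 stood at 28.5, 35.7 and 36.3 FPKM with miR-204-5p mimics and at 23.9, 22.1 and 21.1 FPKM with control mimics. Replicate 1 of the miR-204-5p mimics was the lowest of its group, and it still lay above all controls. The log2 fold change of MCM2 was 0.56 ± 0.10 (± SE here and below, limma adjusted p = 0.0054). MCM3 measured 26.9, 23.9 and 24.4 FPKM against 15.97, 16.02 and 17.6 FPKM, a log2 change of 0.57 ± 0.06 (limma adjusted p = 0.000767). MCM5 measured 17.6, 19.1 and 18.8 FPKM against 13.5, 11.9 and 12.96 FPKM, a change of 0.50 ± 0.06 on the log2 scale (limma adjusted p = 0.00103). In neither gene did the groups overlap. MCM6 gave 21.8, 21.6 and 20.5 FPKM against 14.9, 13.2 and 14.7 FPKM, a log2 change of 0.55 ± 0.06 (limma adjusted p = 0.000593). MCM7, whose libraries agreed most closely, gave 53.9, 57.3 and 55.3 FPKM against 36.9, 37.1 and 38.5 FPKM, a log2 change of 0.55 ± 0.04 (limma adjusted p = 0.000164). The 5 changes, 0.50 to 0.57, lay within each other's 95% intervals. MCM4 was the exception. It was at 63.5, 57.4 and 56.2 FPKM with miR-204-5p mimics and at 55.1, 60.6 and 65.2 FPKM with control mimics, the groups overlapped, and the log2 change was -0.03 ± 0.07 with a 95% interval of -0.21 to 0.15 (limma adjusted p = 0.778). That interval ends below the lower bound of each of the other 5 subunits, which is at lowest 0.317. The MCM4 transcript listed in the table has 572 bases, 13.7% of the longest coding one, and the effect of this on the value was not tested. The summed FPKM of the 6 genes was 212, 215 and 211 with miR-204-5p mimics against 160, 161 and 170 with control mimics, 1.3 times as much.

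**Figure D2:**
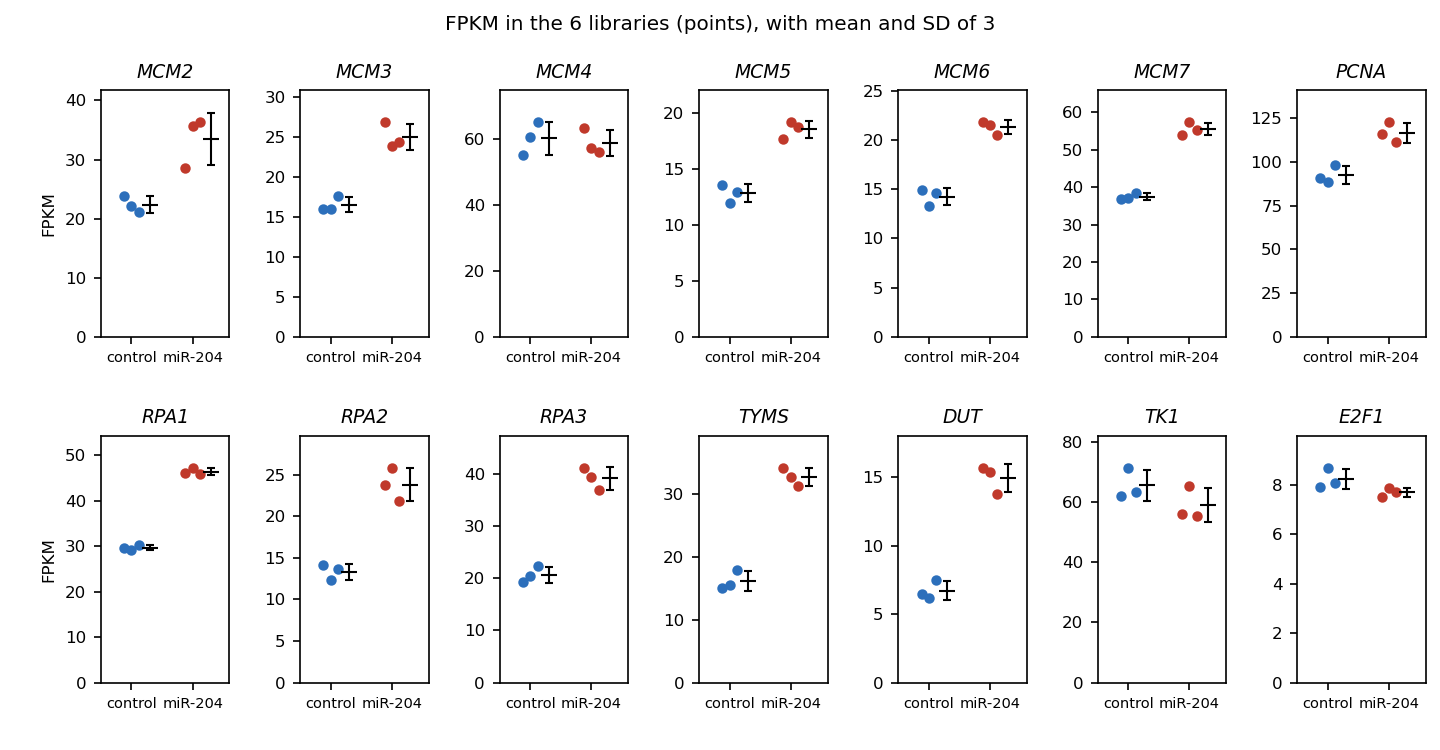
FPKM of 14 of the genes in each library (points; control mimics blue, miR-204-5p mimics red), with the mean and SD of 3 libraries as a cross and bar, all axes starting at 0. MCM2, MCM3, MCM5, MCM6, MCM7, PCNA, RPA1 to RPA3, TYMS and DUT do not overlap and are higher with miR-204-5p mimics, MCM4 and TK1 overlap, and E2F1 is lower without overlap.

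The remaining subunits of the helicase and its activators were mixed. CDC45, which joins the MCM ring at the start of S phase, rose from 6.21, 6.27 and 6.70 FPKM with control mimics to 10.04, 9.52 and 10.1 FPKM with miR-204-5p mimics (log2 change 0.56 ± 0.05, limma adjusted p = 0.000465). GINS is a complex of 4 small subunits, and only GINS2 passed the test, at 9.10, 9.20 and 8.35 FPKM against 7.18, 5.53 and 7.57 FPKM (log2 change 0.36 ± 0.11, limma adjusted p = 0.0391). The GINS2 call was lost without control replicate 1 and without each library with miR-204-5p mimics, where the limma adjusted p was at most 0.111. GINS1 was at 18.1, 18.2 and 19.8 against 15.9, 16 and 17.7 FPKM, without overlap of the groups but with an adjusted p of 0.0643 in limma, and its call was gained without control replicate 3 (limma adjusted p = 0.0344). GINS4, the least abundant of the 51, was at 1.51, 1.11 and 1.24 against 0.919, 0.936 and 1.21 FPKM (log2 change 0.17 ± 0.09, limma adjusted p = 0.169). GINS3 had the lowest log2 change of all, -0.16 ± 0.07, at 3.67, 3.46 and 3.34 FPKM with miR-204-5p mimics and 3.66, 4.21 and 4.14 FPKM with control mimics. Its groups overlapped narrowly and its limma adjusted p was 0.12, or 0.0348 after quantile normalization, where it was the only gene of the 51 called lower. MCM10, which is needed to activate the helicase, was at 2.42, 2.75 and 2.79 FPKM against 1.65, 1.67 and 2.14 FPKM (log2 change 0.38 ± 0.09, limma adjusted p = 0.0156). That call narrowly missed 0.05 without control replicate 1, control replicate 2 or miR-204-5p replicate 2, with limma adjusted p of 0.0529, 0.0532 and 0.053.

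Of the 9 origin recognition and licensing genes 7 rose, among them each of the 6 subunits of the origin recognition complex. ORC5 had the largest change of these, with 6.26, 6.60 and 5.57 FPKM against 4.13, 3.99 and 3.59 FPKM (log2 change 0.54 ± 0.08, limma adjusted p = 0.0024). ORC3 followed with 11.5, 11.2 and 11.1 FPKM against 7.20, 8.54 and 7.62 FPKM (log2 change 0.48 ± 0.07, limma adjusted p = 0.00189). ORC1, the subunit whose level varies most over the cell cycle, was at 7.71, 7.57 and 7.28 FPKM against 5.05, 5.78 and 5.51 FPKM (log2 change 0.40 ± 0.06, limma adjusted p = 0.00295). The groups did not overlap in any of these 3 genes. ORC2 averaged 7.26 ± 0.244 FPKM against 5.63 ± 0.325 FPKM (mean ± SD, n = 3 libraries each), a log2 change of 0.32. ORC4 averaged 6.14 ± 0.363 against 4.80 ± 0.120 FPKM, a log2 change of 0.30. ORC6 averaged 22.3 ± 0.840 against 18.7 ± 1.52 FPKM, with a log2 change of 0.24 and a limma adjusted p of 0.0238 that rose above 0.05 without replicate 2 or 3 of either group (at most 0.0751). CDC6, the ATPase that loads the MCM ring, was at 6.97, 7.75 and 7.77 FPKM against 6.43, 5.46 and 6.40 FPKM, with a log2 change of 0.26 ± 0.08 (limma adjusted p = 0.0368). The CDC6 call was lost without each library but replicate 1 of the miR-204-5p mimics, with an adjusted p of at most 0.108. CDT1, the other loader, was at 24.6, 24.04 and 25.5 FPKM against 23.2, 23.99 and 23.7 FPKM. Its groups did not overlap, but they lay close together and the limma adjusted p was 0.25 for a log2 change of 0.06, with a 95% interval of -0.03 to 0.16. GMNN (geminin), the protein that inhibits CDT1, was at 14.8, 12.7 and 13.2 FPKM against 9.82, 14.4 and 11 FPKM. The control replicate 2 lay inside the other group, and without it the log2 change of 0.21 (limma adjusted p = 0.271) became 0.35 (limma adjusted p = 0.0306).

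Both genes of the origin-firing kinase rose. The kinase CDC7 was at 9.58, 9.95 and 8.57 FPKM with miR-204-5p mimics and 6.59, 6.94 and 6.46 FPKM with control mimics (log2 change 0.43 ± 0.07, limma adjusted p = 0.00294), and its 3'UTR holds the 8mer shown above. DBF4, its activating subunit, was at 6.23, 7.17 and 6.25 FPKM against 5.20, 5.09 and 5.30 FPKM (log2 change 0.28 ± 0.07, limma adjusted p = 0.0159, or 0.0517 without control replicate 2). Neither gene's groups overlapped.

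Among the 9 polymerase and primase genes 6 rose and 3 were not called, with a median log2 change of 0.39. PRIM2, the large primase subunit, had the largest of these changes, at 8.31, 8.46 and 7.98 FPKM against 3.53, 4.13 and 3.74 FPKM (log2 change 0.95 ± 0.07, limma adjusted p = 0.000159). Its mean was 2.17 times that of the controls, and the lowest library with miR-204-5p mimics lay far above the highest control. The PRIM2 transcript listed has 909 bases, 39.4% of the longest coding one, and the effect of this was not tested. PRIM1, the catalytic primase subunit, was at 17.1, 17.9 and 16.6 FPKM against 11.4, 12.9 and 14.2 FPKM (log2 change 0.40 ± 0.08, limma adjusted p = 0.00742). POLA2, the regulatory subunit of polymerase alpha, was at 6.42, 6.49 and 7.35 FPKM against 4.42, 3.84 and 4.58 FPKM (log2 change 0.56 ± 0.08, limma adjusted p = 0.00243). The catalytic subunit of the same enzyme, POLA1, did not pass, at 1.76, 1.96 and 1.97 FPKM against 1.65, 2.17 and 1.72 FPKM. The groups overlapped there, and the log2 change of 0.03 ± 0.09 had a 95% interval of -0.18 to 0.23 (limma adjusted p = 0.813), which lies below that of POLA2, 0.36 to 0.75. A similar split was seen in polymerase epsilon, which extends the leading strand. Its accessory subunit POLE2 was at 5.72, 4.77 and 4.02 FPKM against 1.97, 3.13 and 2.51 FPKM (log2 change 0.72 ± 0.15, limma adjusted p = 0.0102), with wide spread in both groups. Its catalytic subunit POLE was at 11.1, 12.2 and 12.7 FPKM against 13.3, 12.2 and 11.6 FPKM (log2 change -0.04 ± 0.07, limma adjusted p = 0.694). The intervals of the pair did not overlap, with 0.36 to 1.09 for POLE2 and -0.21 to 0.13 for POLE. The difference between subunits was not tested by itself. In polymerase delta, which extends the lagging strand, POLD2 was at 84.6, 81.7 and 86.3 FPKM against 63.4, 64.05 and 64.3 FPKM (log2 change 0.39 ± 0.03, limma adjusted p = 0.000338). The catalytic subunit POLD1 rose as well, at 24.9, 26.3 and 27.5 FPKM against 22.1, 21.4 and 22.2 FPKM (log2 change 0.25 ± 0.05, limma adjusted p = 0.00672). POLD3, an accessory subunit, was at 6.91, 7.96 and 6.62 FPKM against 6.80, 7.22 and 7.02 FPKM (log2 change 0.02 ± 0.07, limma adjusted p = 0.826).

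The sliding clamp PCNA, which holds polymerases on DNA, was the most abundant of the 51 per length. It was at 116, 123 and 112 FPKM with miR-204-5p mimics and 91.1, 88.8 and 98.5 FPKM with control mimics (log2 change 0.33 ± 0.05, limma adjusted p = 0.00403). The clamp is loaded by replication factor C, and 3 of its 5 subunits rose. RFC3 was at 16.4, 16.2 and 14.3 FPKM against 10.9, 10.1 and 10.4 FPKM (log2 change 0.54 ± 0.06, limma adjusted p = 0.00107). RFC4 averaged 14.8 ± 0.271 FPKM against 10.8 ± 0.731 FPKM (mean ± SD, n = 3), a log2 change of 0.42. RFC5 averaged 16.7 ± 0.128 against 13.1 ± 0.593 FPKM, a log2 change of 0.33. The large subunit RFC1, at 19.4, 20.2 and 18.7 against 19.6, 18.98 and 19.2 FPKM, overlapped between groups, and its log2 change of 0.01 had a 95% interval of -0.09 to 0.11. RFC2 was at 10.8, 9.84 and 13.5 against 10.9, 10.6 and 10.9 FPKM, with replicate 3 of the miR-204-5p mimics far above all controls and replicate 2 below them (log2 change 0.06 ± 0.11, limma adjusted p = 0.696). Of the pair that finishes Okazaki fragments, the flap endonuclease FEN1 was at 15.4, 14.6 and 15.9 against 14.5, 14.3 and 16.5 FPKM (log2 change 0.02 ± 0.06, limma adjusted p = 0.828). The DNA ligase LIG1 was at 8.10, 8.93 and 8.20 against 6.81, 6.99 and 7.46 FPKM without overlap (log2 change 0.22 ± 0.06, limma adjusted p = 0.0277), and its call was lost without control replicates 1 or 2 or miR-204-5p replicates 2 or 3, with an adjusted p of at most 0.0834.

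The 3 genes of replication protein A (RPA), the trimer that coats single-stranded DNA, rose together and had the highest median change of any role with more than 2 genes, 0.79. RPA1, the large DNA-binding subunit, was at 46.03, 47.2 and 45.7 FPKM against 29.6, 29.1 and 30.2 FPKM (log2 change 0.63 ± 0.03, limma adjusted p = 8.1e-05). This is the smallest adjusted p among the 51 genes. The RPA1 transcript listed in the table has 577 bases, 13.3% of the longest coding one, and the effect of this on the value was not tested. RPA2, the subunit that checkpoint kinases phosphorylate, was at 23.7, 25.8 and 21.9 FPKM against 14.1, 12.3 and 13.6 FPKM (log2 change 0.79 ± 0.08, limma adjusted p = 0.000504). RPA3, the small subunit, was at 41.2, 39.5 and 36.9 FPKM against 19.3, 20.4 and 22.3 FPKM (log2 change 0.89 ± 0.07, limma adjusted p = 0.000195). In each of them all libraries with miR-204-5p mimics were far above all controls. The summed FPKM of the trimer was 111, 113 and 105 with miR-204-5p mimics against 63.1, 61.8 and 66.2 with control mimics, 1.72 times as much. At the fork, WDHD1, which links polymerase alpha to the helicase, was at 6.79, 7.86 and 7.49 FPKM against 5.78, 4.64 and 6.33 FPKM (log2 change 0.35 ± 0.11, limma adjusted p = 0.039). The WDHD1 call was lost without each library but control replicate 3, with an adjusted p of at most 0.117. TIMELESS, which protects stalled forks, was at 13.9, 14.9 and 14.8 FPKM against 13.02, 12.8 and 13.8 FPKM, without overlap but with a limma adjusted p of 0.0852 (log2 change 0.13).

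Nucleotide supply held the 2 largest log2(FPKM + 1) changes of the 51 genes (by the ratio of means TYMS came after PRIM2) and also a gene with a negative change. DUT, the dUTPase that keeps uracil out of DNA and provides dUMP, was at 15.7, 15.4 and 13.8 FPKM with miR-204-5p mimics and 6.50, 6.14 and 7.49 FPKM with control mimics. Its log2 change of 1.05 ± 0.08 was the largest of the 51 genes (limma adjusted p = 0.000241), and its mean was 2.23 times that of the controls. The DUT transcript listed has 569 bases, 26.5% of the longest coding one, and the effect of this was not tested. TYMS (thymidylate synthase), which turns that dUMP into dTMP, was at 34.2, 32.7 and 31.2 FPKM against 15.02, 15.5 and 17.9 FPKM (log2 change 0.98 ± 0.07, limma adjusted p = 0.000195). In both genes the lowest library with miR-204-5p mimics lay well above the highest control. TK1, the thymidine kinase that makes dTMP by salvage, was not higher, at 56.1, 65.4 and 55.3 FPKM against 62, 71.4 and 63.3 FPKM. Its groups overlapped through replicate 2 of the miR-204-5p mimics, and the log2 change of -0.15 ± 0.08 had a 95% interval of -0.35 to 0.04 (limma adjusted p = 0.187). That interval ends far below those of DUT, 0.85 to 1.25, and TYMS, 0.81 to 1.15. Both subunits of ribonucleotide reductase, which makes deoxynucleotides from ribonucleotides, passed the test. The large subunit RRM1 was at 41.5, 42.1 and 39.2 FPKM against 34.1, 30.8 and 33.7 FPKM (log2 change 0.31 ± 0.05, limma adjusted p = 0.0043). The small subunit RRM2 was at 12.8, 18.1 and 13.9 FPKM against 10.6, 9.68 and 11.2 FPKM, with replicate 2 of the miR-204-5p mimics the highest by far (log2 change 0.46 ± 0.12, limma adjusted p = 0.0255). The RRM2 call was lost without control replicate 1 or control replicate 2, with limma adjusted p of 0.0638 and 0.0793.

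E2F1, the transcription activator among the 51, was at 7.51, 7.88 and 7.69 FPKM with miR-204-5p mimics and 7.92, 8.68 and 8.08 FPKM with control mimics. It was the only gene of the 51 whose groups separated in the lower direction, beside 3393 of all 14959 genes. The distance was small, with a log2 change of -0.09 ± 0.05, a 95% interval of -0.21 to 0.04 and a limma adjusted p of 0.255.

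**Figure D3:**
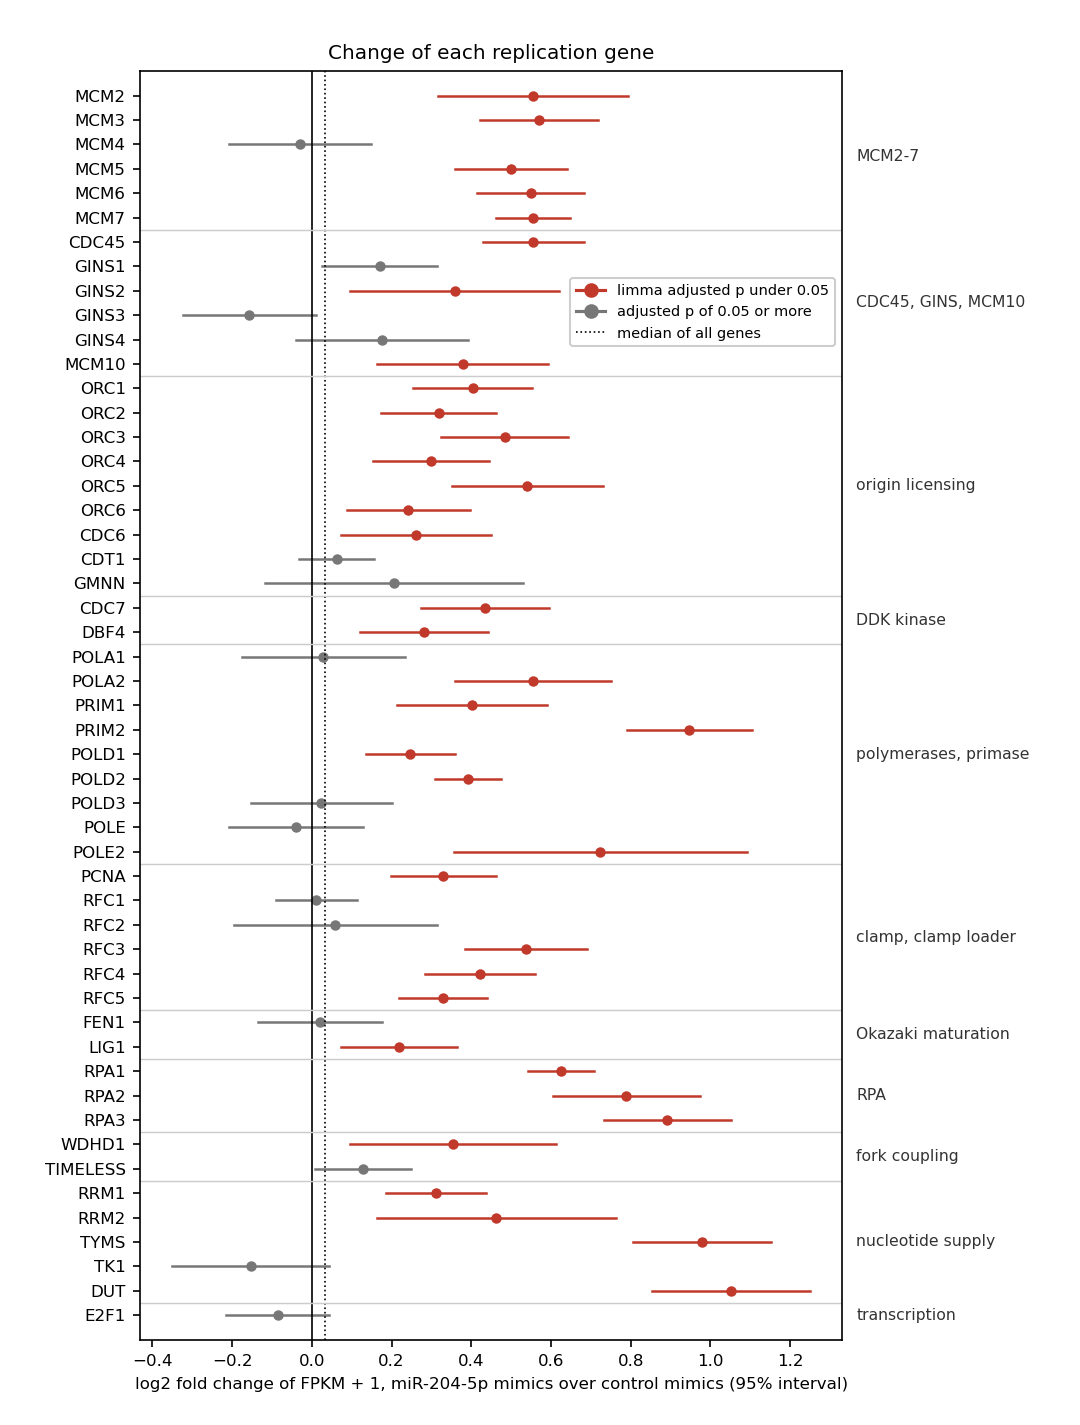
Log2 fold change of FPKM + 1 (horizontal axis) with its 95% interval for each of the 51 genes, miR-204-5p mimics over control mimics, red where the limma adjusted p was under 0.05 and grey otherwise. All 36 red intervals lie to the right of 0, and the dotted line is the median of all genes, 0.03.

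Of the 36 calls 28 held when any of the 6 libraries was left out and under all 12 alternative settings. The 8 calls lost under some setting were those of CDC6, WDHD1, GINS2, LIG1, ORC6, MCM10, RRM2 and DBF4, all with a log2(FPKM + 1) change under 0.5. The spread within a group was small, with a coefficient of variation of 0.742% to 22.9% and a median of 6.15% over the 51 genes and both groups. It did not fall evenly on the libraries. Control replicate 3 was the highest of its group for 25 of the 51 genes and replicate 2 of the miR-204-5p mimics the highest of its group for 24. The median deviation from the group mean over the 51 genes was 0.03 on the log2 scale in each of these libraries, against 0.003 and 0.005 over all genes that reached a mean of 1 FPKM. Across the 51 genes the log2 change did not follow the control level (Pearson r = -0.08, Spearman rho = -0.07, genes of the same libraries and so not independent). The highest levels per length after PCNA were those of POLD2, TK1 and MCM4, of which POLD2 passed the test and TK1 and MCM4 did not.

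Sites for the miRNA were found among genes that rose and genes that did not. A seed match of any of the 3 kinds was present in the longest 3'UTR of 10 of the 51 genes (19.6%), against 3972 of 14660 genes with an annotated 3'UTR (27.1%), and the replication genes had shorter 3'UTRs (median 980 against 1251 bases). The match was present in 5 of the 36 genes called higher and in 5 of the 15 not called. Of all 1260 genes with an 8mer 422 were lower and 168 higher, with a median log2 change of -0.08. Of the 7 replication genes with the 8mer, 5 were higher and 0 lower, with a median of 0.35. These 5 were RPA1, RRM2, CDC7, WDHD1 and ORC4, while POLA1 and GINS3 did not pass. The RPA1 site lies outside its listed transcript, and the RRM2 and WDHD1 calls were lost when some libraries were left out. GINS4 held a 7mer-m8, and CDT1 and E2F1 held a 7mer-A1, and none of the 3 was called. The 41 genes without a match had 31 higher calls, 0 lower calls and a median of 0.38, against 2906 higher and 1437 lower of 10688 genes without a match in all and a median of 0.06. A match is a description and not evidence of binding.

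**Figure D4:**
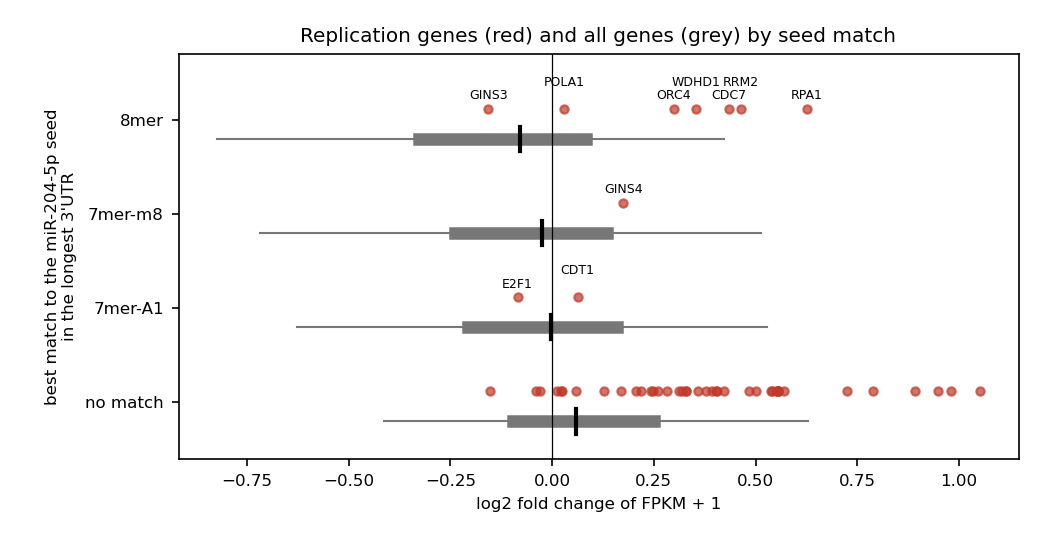
Log2 fold change of FPKM + 1 (horizontal axis) by the best seed match for miR-204-5p that the longest 3'UTR holds, with the replication genes as red points and all genes as a grey bar (middle 50%), line (5% to 95%) and black mark (median). The 8mer group of all genes has its median at -0.08, while 5 of the 7 replication genes with an 8mer lie between 0.30 and 0.63.

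The E2F motif was common in these promoters. It was found in 20 of the 45 replication genes that matched a RefSeq promoter (44.4%), against 490 of 11452 genes of the table with a promoter (4.3%) and 750 of 27305 RefSeq genes in all (2.7%). Counted by promoter, it was in 20 of 60 windows of the replication genes (33.3%) and in 797 of 35116 windows in all (2.3%). The matches lay between -187 in MCM7 and 7 in CDC6. TTTCCCGC was found in 12 genes, which beside CDC7 and DUT were MCM3, MCM7, ORC3, GINS2, GINS3, CDT1, RFC3, PCNA, LIG1 and TYMS. MCM6, GMNN, POLE, POLE2, CDC6, GINS1, POLA1 and E2F1 held TTTGGCGC only. Some windows with a match lie away from the start of the listed transcript. Their start site was 6596 bases upstream of it in PCNA and 617 bases upstream in MCM7. It was 576 bases downstream in CDT1 and 482 bases downstream in GMNN. The 20 genes with a motif had 13 higher and 0 lower calls and a median log2 change of 0.34, and the 25 with a promoter but no motif had 20 higher and 0 lower calls and a median of 0.35. Of the promoters printed above, those of DUT, CDC7 and MCM6 belong to genes that rose and that of E2F1 to a gene that was not called.

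Properties of the table touch some of these values. It lists 1 transcript per gene, and in 7 genes (MCM4, ORC6, PRIM2, POLD3, RFC5, RPA1 and DUT) that transcript has under 50% of the length of the longest coding one. Among the 44 others 31 were higher and 0 lower with a median log2 change of 0.36. In 5 genes (ORC6, DBF4, PRIM1, POLD1 and RRM1) the listed transcript is annotated as a target of nonsense-mediated decay, and all 5 were higher. GENCODE 29 names pseudogenes after 10 of the genes, 9 of which were higher, with 8 pseudogenes for DUT. How reads were shared with such copies is not given in the sources used here. Exon bases are shared with another gene of the table in 11 genes, of which 10 were higher and 0 lower. TYMS shares 967 bases, 58.2% of its listed transcript, with ENOSF1 on the opposite strand, and the libraries' strandedness is not given in the sources used here, so reads of the pair cannot be told apart. ENOSF1 averaged 8.63 ± 0.277 FPKM with miR-204-5p mimics and 6.32 ± 0.325 FPKM with control mimics (SD, n = 3), a log2 change of 0.40, smaller than that of TYMS. RPA1 shares 27% of its listed transcript with SMYD4 on the opposite strand, and SMYD4 changed the other way, from 9.11 to 7.38 FPKM (log2 change -0.27, limma adjusted p = 0.0057). ENOSF1 and SMYD4 are named here after their values were seen. RRM2 shares 1061 bases, 30.9%, with AC007240.1 on the same strand, which was at 22.8, 19.1 and 24.96 FPKM against 21.99, 20.9 and 24.1 FPKM (log2 change -0.01). Without the 7 short transcripts and the genes with shared exons 34 of the 51 remained, of which 22 were higher and 0 lower, with a median of 0.32.

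Related gene lists were read in the same comparison. Of 28 other replication factors 12 were higher (42.9%) and 3 lower (10.7%), with a median log2 change of 0.15. Of all genes 23.9% were higher and 16.8% lower. The largest rise was that of DSCC1, which helps an alternative loader place PCNA, at 10.8, 10.4 and 11.1 FPKM against 4.51, 4.02 and 4.26 FPKM (log2 change 1.16 ± 0.06, limma adjusted p = 6.74e-05). CHTF18, the large subunit of the same loader, and POLD4, the small subunit of polymerase delta, rose by 0.64 and 0.65 on the log2 scale. The topoisomerases that relieve the twist ahead of the fork fell, with TOP2A at 82.4, 87.7 and 85.04 FPKM against 130, 120 and 124 FPKM (log2 change -0.55 ± 0.04, limma adjusted p = 0.000246). TOP1 was at 33.7, 33.6 and 34.5 FPKM against 49.2, 49.97 and 51.05 FPKM (log2 change -0.55 ± 0.03, limma adjusted p = 0.000108). The nuclease DNA2 fell too, with a log2 change of -0.31. Of 27 other genes of nucleotide synthesis 17 were higher (63%) and 3 lower (11.1%), with a median of 0.30. The 51 genes had 70.6% higher and a median of 0.35. PRPS1, which makes the ribose phosphate donor, rose with a log2 change of 0.76, MTHFD1 of the folate cycle with 0.70, and the nucleoside diphosphate kinase NME1 with 0.66. The genes that fell in this list were both IMP dehydrogenases, which commit IMP to guanine nucleotides, and SHMT1 of the folate cycle. IMPDH2 was at 81.5, 80.8 and 81.04 FPKM against 103, 111 and 113 FPKM (log2 change -0.42 ± 0.04, limma adjusted p = 0.000523), IMPDH1 had a log2 change of -0.45 and SHMT1 one of -0.21. The SHMT1 call was lost without each library but control replicate 2 (limma adjusted p at most 0.103).

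Of 12 other genes of the E2F and RB family, which controls the transcription of many of these genes, 2 were higher (16.7%) and 2 lower (16.7%), beside 23.9% and 16.8% of all genes, and 8 were not called. The median log2 change was -0.10, and the counts became 1 and 5 with equal library medians and 1 and 4 with quantile normalization. E2F5, a repressor that works with RB family proteins, was at 11.4, 11.5 and 10.8 FPKM against 6.52, 7.24 and 7.39 FPKM (log2 change 0.60 ± 0.06, limma adjusted p = 0.000561). TFDP1, a partner with which most E2F proteins bind DNA, was at 43.2, 47.1 and 46.6 FPKM against 54.9, 57.95 and 60.7 FPKM (log2 change -0.34 ± 0.05, limma adjusted p = 0.00331). E2F8, with a log2 change of 0.19, and RBL1, with -0.25, passed less firmly. The E2F8 call was lost without each of the 6 libraries (limma adjusted p at most 0.0992) and the RBL1 call without each but control replicate 1 (at most 0.122). Of 17 G1 cyclins, their kinases and inhibitors 5 were higher (29.4%) and 4 lower (23.5%), with a median of 0.005. Of 39 mitosis genes 16 were higher (41.0%) and 7 lower (17.9%), with a median of 0.15.

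**Figure D5:**
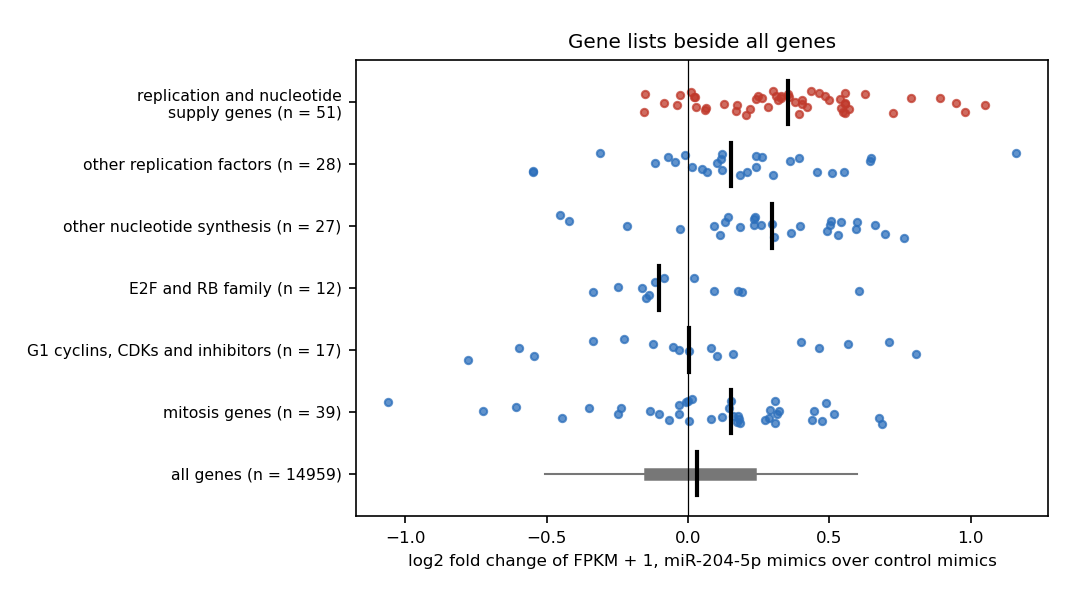
Log2 fold change of FPKM + 1 (horizontal axis) of each gene of the 51 (red) and of 5 related lists (blue), with the median of each list as a black bar, and all genes as a grey bar (middle 50%) and line (5% to 95%). The replication genes have the highest median, 0.35, with the lowest gene at -0.16, while each of the other lists reaches further below 0. All lists were chosen with earlier results of these data known, so their order is a description.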

How the data were processed

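RNA of 6 libraries (3 for each kind of mimic) was analysed from the gene table that the authors deposited. The authors computed the FPKM values, 1 column per library, and the submitters' processing notes name HISAT2, StringTie and the build hg38, with no versions. Which program made the columns is not given in the sources used here. The deposited table also gives the listed transcript's length (a plain number of bases) and the authors' own fold changes and p-values, which were not used. Groups were taken from the sample labels.

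The test was that of limma 3.58.1 (R 4.3.3) on log2(FPKM + 1), fitted by lmFit and eBayes with a trend, two-sided, without covariate or filter, and Benjamini-Hochberg adjusted at 0.05 over 14959 genes. Counts could not be recovered, since a share of 20.1% to 23.5% among low values fell on multiples of the step that 1 read makes (tolerance 0.02). Depth was read from that step. On simulated data of 14959 genes, 12 of 50 genes changed by 0.3, 36 of 50 by 0.6 and 47 of 50 by 1 on the log2 scale were called. For a change of -0.6 it was 36 of 50, and 6 unchanged genes were called. Far fewer genes changed there than the 3578 higher and 2520 lower called in the real libraries. These shares thus do not give the sensitivity or the rate of false calls in the real comparison. Spearman correlations were 0.9899 to 0.9908 within groups and 0.9733 to 0.9756 between them. Sites were counted with Python 3.11.15 (pandas 2.3.3, numpy 2.4.6, scipy 1.17.1) in GENCODE 29, in which all 51 transcripts had the same coordinates, and in RefSeq. The sequence and position of the other 2 sites with an 8mer are not reported here. Figures used matplotlib 3.10.9.

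The 51 genes and all lists were chosen with earlier results of these data known. Any of the 51 could be named, and of each related list at most the 3 largest rises and 3 largest falls with an adjusted p under 0.05 and a mean FPKM of at least 1. Alternatives were another pseudocount, a filter on low values, 2 scalings, the replicate number as a block, no trend and each library left out. Leaving out short transcripts and shared exons was added after seeing the data.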

Additional observations from a re-analysis of the deposited data

How the results depend on the processing

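The 36 higher calls became 36 with a pseudocount of 0.1, 36 with only genes of a mean FPKM of at least 1, 36 without the trend, 31 with equal library medians, 33 with quantile normalization and 30 to 35 when a library was left out. They became 31 without short transcripts and 22 when genes with shared exons were left out too, which leaves fewer genes to count. A lower call appeared with quantile normalization, 1 gene (GINS3), and under no other setting. The median log2 change of 0.354 was 0.397 with a pseudocount of 0.1, 0.315 with equal medians, 0.314 with quantile normalization and 0.325 to 0.396 when a library was left out, the highest without control replicate 3. With the motif TTTCCCGC alone, 12 genes held an E2F motif instead of 20. Same-numbered libraries did not deviate together over all genes (r = -0.03, -0.01 and -0.09). With 3 libraries a group this cannot tell whether the numbers pair the samples. With the replicate block 30 genes were higher and 0 lower, the median stayed at 0.354 and 2999 genes in all were higher and 2097 lower.

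Only genes with a log2 change near 0 turned sign. With equal medians POLD3 was at -0.016, RFC1 at -0.032 and FEN1 at -0.022, and with quantile normalization POLA1 was at -0.057, POLD3 at -0.006 and RFC1 at -0.014. When a library was left out, MCM4 ranged from -0.092 to 0.027, POLA1 from -0.020 to 0.109, POLD3 from -0.045 to 0.071, POLE from -0.082 to 0.011, RFC1 from -0.015 to 0.035, RFC2 from -0.061 to 0.149 and FEN1 from -0.014 to 0.080. The cause was not tested. The table gives FPKM without counts, so the depth behind a low value is known only by inference, and 3 libraries a group limit what small changes can be called.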

Other observations

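Of the 17 G1 cyclins, their kinases and inhibitors 5 were higher (29.4%), 4 lower (23.5%) and 8 not called, beside 23.9% higher and 16.8% lower of all genes. The 3 largest rises and 3 largest falls are given here. CDK2, the kinase of cyclin E and cyclin A, was at 22.4, 24.7 and 20.7 FPKM with miR-204-5p mimics and 14.5, 13.5 and 12.2 FPKM with control mimics (log2 change 0.71 ± 0.08, limma adjusted p = 0.00104). SKP2, which directs the CDK inhibitor p27 to degradation, was at 22.4, 24.2 and 22.7 FPKM against 13.5, 12.9 and 11.9 FPKM (log2 change 0.81 ± 0.06, limma adjusted p = 0.000175), and cyclin D2 (CCND2) rose with a log2 change of 0.57. The inhibitors that fell were CDKN2C with -0.78, CDKN2B with -0.60 and CDKN1A with -0.54 on the log2 scale. The other inhibitors of the list were not called, and the remaining lower call was that of a cyclin. CDKN1A, which codes for p21, was at 30.8, 26.5 and 28.4 FPKM against 44.3, 41.6 and 40.3 FPKM (limma adjusted p = 0.00102). The groups overlapped in none of the 6 named genes, but these were picked by their change and limma adjusted p, so this adds no support.

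Of the 39 mitosis genes 16 were higher, 7 lower and 16 not called, and again the 3 largest of each are given. CDCA8, a subunit of the chromosomal passenger complex, was at 14.2, 16.04 and 15.4 FPKM against 33.03, 31.9 and 33.5 FPKM (log2 change -1.06 ± 0.05, limma adjusted p = 6.74e-05). Cyclin A2 (CCNA2), the cyclin of S phase and G2, was at 22.8, 24.3 and 22.5 FPKM against 36.7, 34.4 and 36.5 FPKM (log2 change -0.61 ± 0.05, limma adjusted p = 0.000211), and the transcription factor FOXM1 fell with a log2 change of -0.45. The condensin subunit SMC2, the spindle checkpoint protein MAD2L1 and the kinetochore protein SPC25 rose, with log2 changes of 0.69, 0.68 and 0.52. Here, too, the groups overlapped in none of the 6 genes, which were picked in the same way.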
